A study of Homo sapiens with 18 samples.

Results

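The genes described here are 47 that act in mitosis: the cyclins and kinases that bring a cell into mitosis, the spindle checkpoint, the kinetochore, the mitotic kinesins, the spindle assembly factors and the cytokinesis genes, with FOXM1 as their transcription factor. They were taken by gene symbol, and all 47 were found among the 26485 genes in each of 2 deposited tables. The tables hold RNA-seq of PANC-1 cells, an established epithelial line from a human pancreatic ductal adenocarcinoma, in 18 libraries. In the first table the cells carried a control siRNA, PKR siRNA 1 or else PKR siRNA 2, each for 72 h after transfection. The second holds cells kept for 72 h in DMSO, in 400 nM C16 or in 800 nM C16, and there were 3 libraries in each of the 6 groups. PKR is the double-stranded RNA-activated kinase encoded by EIF2AK2, the siRNAs were directed at its mRNA, C16 is a small-molecule inhibitor of its kinase activity, and DMSO is the solvent control. The purpose was to find which transcripts change when PKR is silenced or inhibited. All groups share the same line, and no step that selects or synchronizes cells in a cell cycle phase is described in the labels. The siRNA libraries belong to run 1 and the C16 libraries to run 2, so a difference between runs cannot be told apart from one between siRNA and C16, and values were compared only within a table. Nothing in the labels says that the replicates were separate cultures, so p-values measure the spread between these libraries, which may be technical.

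A cell enters mitosis when cyclin B bound to CDK1 becomes active, which requires that a CDC25 phosphatase removes inhibitory phosphates from CDK1. Kinetochores then attach the chromosomes to spindle microtubules, the checkpoint holds back the anaphase-promoting complex (APC/C) until every kinetochore is attached, and CDC20 then lets this ubiquitin ligase destroy securin and cyclin B so that the sister chromatids part. Most of these genes are transcribed in G2 and mitosis, under the MuvB core with B-MYB and FOXM1, and are repressed by the DREAM complex in resting cells, both acting through a promoter element called the cell cycle genes homology region (CHR). In a bulk library, fewer cells in G2 and mitosis and less RNA per such cell cannot be told apart.

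Between 1512940 and 1873906 reads fell on genes in a library of the siRNA table and between 894145 and 1474308 in one of the C16 table, so counting error was larger in the C16 table. EIF2AK2 stood at 95.5, 93.5 and 103 normalized counts under the control siRNA, at 10.0, 13.6 and 9.65 under PKR siRNA 1 and at 7.96, 8.58 and 9.40 under PKR siRNA 2, so both siRNAs lowered their target. With C16 it was not called (log2 fold change -0.22 at 400 nM and 0.01 at 800 nM). The epithelial label was checked on 6 markers: KRT8, KRT18 and KRT19 reached between 519 (KRT19) and 5105 (KRT8) normalized counts in every library, whereas KRT7, CDH1 and EPCAM were low. Of these 6 markers 5 were called lower with PKR siRNA 1, where 12.6% of all genes tested were. With PKR siRNA 2, 3 were called higher and 2 lower, against 10.8% and 12.8% of all genes. Of the 5 tested with C16, 2 were called lower at 400 nM (5.45% of all genes). At 800 nM 1 was called higher and 2 lower (11.6% and 14.1%). The part of these markers in the results below was not tested. None of 12 markers of leukocytes, endothelium, fibroblasts, hepatocytes and islet cells reached a mean of 10 normalized counts in either table.

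Together, the mitosis genes took more reads than in the control with PKR siRNA 1 and fewer with PKR siRNA 2, while both siRNAs lowered EIF2AK2. Their reads made up 74.1, 75.7 and 73.2 of every 10000 reads on genes with control siRNA, 95.6, 94.3 and 98.8 under PKR siRNA 1 and 56.3, 56.7 and 58.4 under PKR siRNA 2. The 3 groups did not overlap, and their means stood in a ratio of 1.29 (PKR siRNA 1) and 0.768 (PKR siRNA 2) to the control. Without the 5 genes that took most of these reads (MKI67, TPX2, CENPF, TOP2A and ANLN) the ratios were 1.25 and 0.807. In the C16 table the same share was 64.2, 64.9 and 69.6 with DMSO, 68.9, 71.6 and 72.5 at 400 nM and 69.4, 69.6 and 71.7 at 800 nM. The third DMSO library lay above the first library at 400 nM and the first and second at 800 nM, so these groups overlapped.

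**Figure D1:**
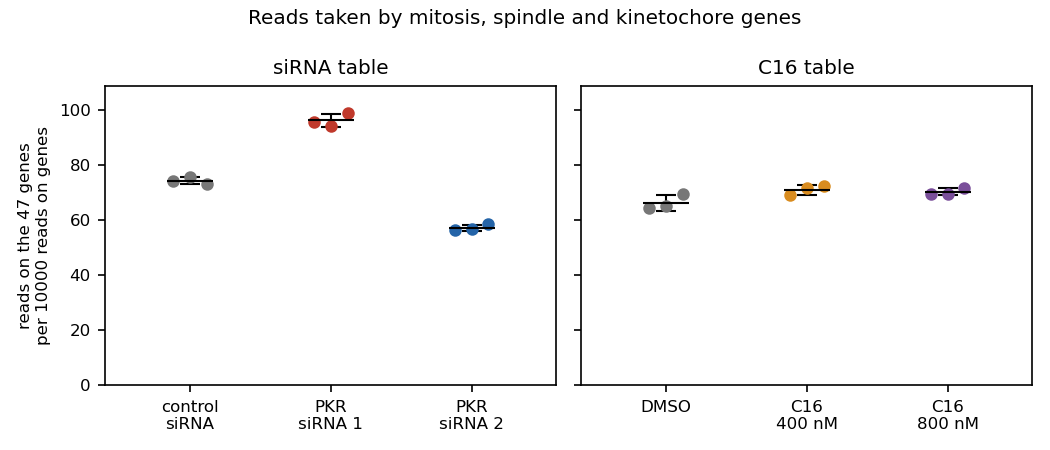
Reads on the 47 mitosis genes per 10000 reads on genes (y axis) in each library, for the siRNA table (left) and the C16 table (right). Points are libraries, horizontal lines means and bars the SD of 3 libraries. All PKR siRNA 1 libraries lie above, and all PKR siRNA 2 libraries below, the control siRNA libraries.

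Genes were tested with limma on log2(normalized count + 1) and were called when the Benjamini-Hochberg adjusted p was under 0.05 and the fold change over 1.5; "rose" and "fell" are used below only of called genes. With PKR siRNA 1, 7 of the 47 rose, while 8.53% of all 10593 genes tested were called higher. In the other direction 0 were called by limma, edgeR and DESeq2, with 2 genes lower at an unadjusted p under 0.05, against a background of 12.6% called lower. Taken on the adjusted p alone, 25 of the 47 were higher and 1 (KIF14) lower, where 21.1% and 23.9% of all genes were. With PKR siRNA 2, 15 of the 47 fell and 1 (CDC25B) rose, against 12.8% and 10.8% of all genes. On the adjusted p alone 36 were lower and 1 higher, against 25.2% and 22.1%. The median log2 fold change of the 47 was 0.26 with PKR siRNA 1 and -0.43 with PKR siRNA 2, while the median of all genes tested was -0.01 and -0.01. Both comparisons use the same control libraries, so the difference between the siRNAs was tested directly: with PKR siRNA 2 against PKR siRNA 1, 34 of the 47 were lower and 1 was higher, with a median of -0.74. In this contrast 15.3% of all genes were called lower and 16.4% higher. On the adjusted p alone it held 42 lower and 2 higher genes, against 29.3% and 27.7%.

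**Figure D2:**
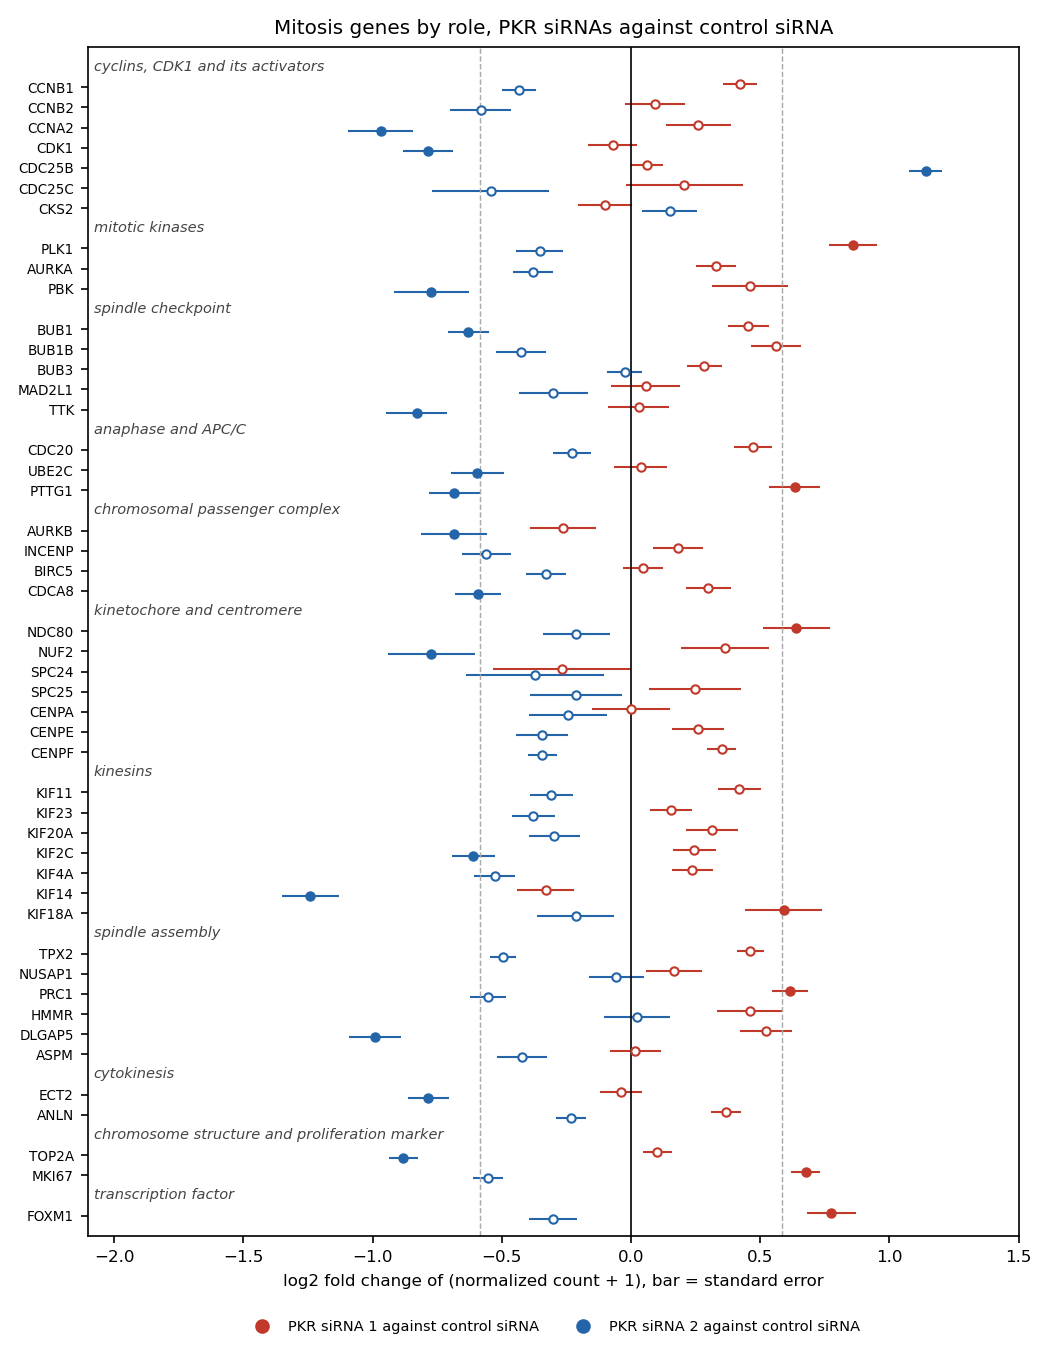
Log2 fold change (x axis) of the 47 genes, grouped by role, for PKR siRNA 1 (red) and PKR siRNA 2 (blue) against control siRNA. Points are limma estimates and bars their standard errors; filled points are called, and dashed lines mark a fold of 1.5. PLK1 (0.86) is the farthest right in red, and KIF14 (-1.24) the farthest left in blue, with CDC25B (1.14) apart on the right.

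Promoters are shown for PLK1, KIF14 and DLGAP5, which all hold a CHR. PLK1 had the largest rise under PKR siRNA 1 and KIF14 the largest fall under PKR siRNA 2. DLGAP5 had the largest difference between the siRNAs. CDC25B, the only mitosis gene that rose under PKR siRNA 2, had no CHR match. The same held for KIF20A, the only mitosis gene that fell at the higher dose of the inhibitor. It also held for CCNA2, PTTG1, AURKB and KIF2C, which all fell under PKR siRNA 2. None of these genes is shown, so a CHR in every printed promoter is not a result. The printed promoters come from RefSeq (GRCh38.p14), run 5′ to 3′ on the strand of the gene, and cover 250 bases before to 25 after the annotated start. Capitals mark the CHR, searched as TTTGAA or TTCGAA, and the CCAAT box, searched as CCAAT, each on both strands, so that a CHR on the other strand reads TTCAAA.
PLK1 (chr16:23678639-23678913, + strand): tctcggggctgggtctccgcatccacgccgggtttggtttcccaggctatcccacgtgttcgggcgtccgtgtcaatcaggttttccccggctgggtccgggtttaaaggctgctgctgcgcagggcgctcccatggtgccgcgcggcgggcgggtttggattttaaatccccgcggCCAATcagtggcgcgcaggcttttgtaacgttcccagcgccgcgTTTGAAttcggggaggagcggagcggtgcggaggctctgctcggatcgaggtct
KIF14 (chr1:200620727-200621001, - strand): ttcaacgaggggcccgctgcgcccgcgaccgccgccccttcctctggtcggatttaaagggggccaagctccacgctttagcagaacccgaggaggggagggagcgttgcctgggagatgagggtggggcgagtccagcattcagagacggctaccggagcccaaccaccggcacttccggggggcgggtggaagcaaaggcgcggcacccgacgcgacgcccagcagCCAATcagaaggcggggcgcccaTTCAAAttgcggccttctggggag
DLGAP5 (chr14:55191561-55191835, - strand): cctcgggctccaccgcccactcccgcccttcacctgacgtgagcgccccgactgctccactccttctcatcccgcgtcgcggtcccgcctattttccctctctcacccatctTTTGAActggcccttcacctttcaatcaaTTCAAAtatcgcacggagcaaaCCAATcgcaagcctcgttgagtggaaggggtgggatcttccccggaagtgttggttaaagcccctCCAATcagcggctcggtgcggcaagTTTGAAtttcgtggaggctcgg
In PLK1 the CHR began -29 and the CCAAT box -73 bases from the start site. KIF14 had its CHR at 2 bases past the start, on the other strand, and a CCAAT box at -22. DLGAP5 held 3 CHR matches, at -138, -109 and 4, and CCAAT boxes at -87 and -22. In MKI67, whose promoter is not printed, CHR matches lay at -47 and -29. The exons used in counting begin upstream of the RefSeq start in PLK1 (chr16:23678822) and DLGAP5 (chr14:55191678). In KIF14 (chr1:200620734) they begin downstream of it. The distances therefore depend on the start taken.

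Of the 47 genes 39 had a promoter in the RefSeq table, of 300 bases (250 before to 50 after the start); AURKA, PBK, BUB3, TTK, UBE2C, BIRC5, TPX2 and FOXM1 were not matched. A CHR stood in 29 of the 39 (74.4%), against 16.6% of all 27305 promoters of this length. For 26 of them (66.7%, against 7.43% of all promoters) a CHR lay within the last 100 bases before or the 50 after the start. The CCAAT box, which the factor NF-Y binds, was in 31 (79.5%, against 35.7%), and 20 (51.3%, against 11.3%) held at least 2. Both motifs together were in 25 (64.1%, against 6.58%). In the promoters of the genes that were lower with PKR siRNA 2 than with PKR siRNA 1 the CHR was in 21 of 28 (75%), and in those of the other genes in 8 of 11 (72.7%). Among the 39, CDC25B, CDC25C, CENPE and KIF2C held neither motif. CDC25B was higher with PKR siRNA 2 than with PKR siRNA 1 (1.08). CDC25C, CENPE and KIF2C were lower (-0.75, -0.60 and -0.85), as most of the genes were. A match of 6 letters is a description of the sequence and not a measured binding site.

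**Figure D3:**
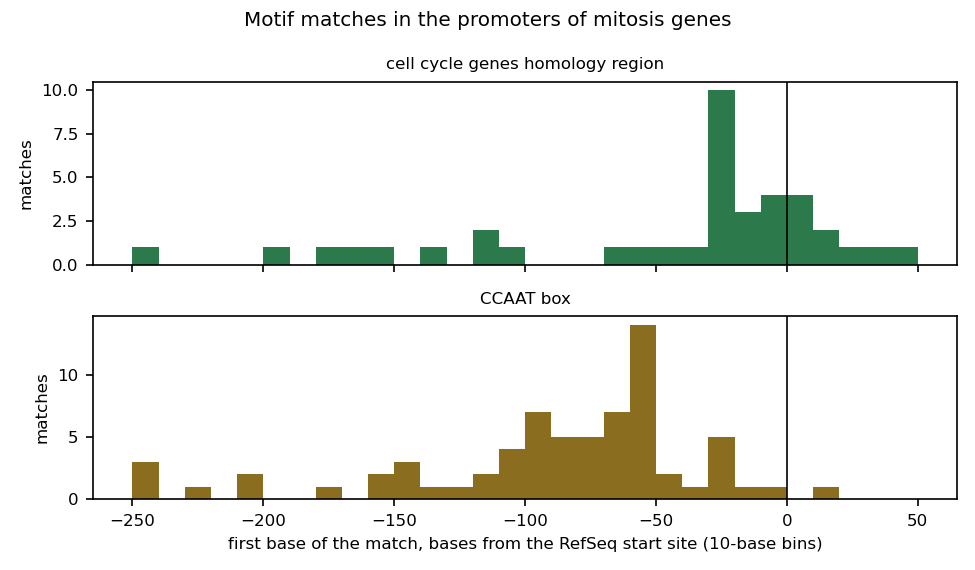
Number of matches (y axis) of the CHR (top) and the CCAAT box (bottom) by the position of their first base from the RefSeq start site (x axis, 10-base bins) in the promoters of 39 mitosis genes. Matches of the CHR gather around the start, with 26 promoters holding one between 100 bases before and 50 after it, and CCAAT boxes lie further upstream.

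Among the cyclins, CDK1 and its activators, CCNA2 and CDK1 fell with PKR siRNA 2, and CDC25B rose. CDC25B (chr20:3786772-3806121, hg38, as the file gives its exons) encodes the phosphatase that starts CDK1 activation at the centrosome. It stood at 399, 423 and 389.6 normalized counts in the control libraries, 412, 425 and 427 under PKR siRNA 1 and 884, 849 and 942 under PKR siRNA 2 (log2 fold change 1.14 ± 0.06 SE, adjusted p = 4.15e-27). The PKR siRNA 2 libraries were far above the other 6, which overlapped. CCNA2, cyclin A, which partners CDK2 in S phase and CDK1 at mitotic entry, read 115, 118 and 95.7 in the control, 137, 125 and 131 under PKR siRNA 1 and 57.7, 61.1 and 48.0 under PKR siRNA 2 (-0.97 ± 0.13 SE, adjusted p = 5.09e-10 for PKR siRNA 2). All 3 PKR siRNA 2 libraries were below the rest, and PKR siRNA 1 did not pass the test (0.26). For CDK1 the control libraries held 207, 211 and 194, those of PKR siRNA 1 208, 179.6 and 196 and those of PKR siRNA 2 108, 119 and 127 (-0.79 ± 0.10 SE, adjusted p = 7.7e-11). Control and PKR siRNA 1 overlapped and PKR siRNA 2 was apart. The contrast between the siRNAs was -0.71 for CDK1 and -1.23 for CCNA2, and both were called. CCNB1, cyclin B1, was at 445, 454 and 433 in the control, 633, 575 and 578 under PKR siRNA 1 and 327, 329 and 329 under PKR siRNA 2. Its 3 groups did not overlap, but neither step from the control reached 1.5-fold (0.42 and -0.43), and the step between the siRNAs did (-0.85). CCNB2 and the phosphatase CDC25C were lower with PKR siRNA 2 than with PKR siRNA 1 (-0.68 and -0.75), whereas the CDK-binding subunit CKS2 had a log2 fold change of 0.25.

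The mitotic kinases separated all 3 groups. PLK1, the polo-like kinase needed for spindle assembly and mitotic progression, stood at 179, 175 and 171 in the control, 314, 354 and 288 under PKR siRNA 1 (0.86 ± 0.09 SE, adjusted p = 5.33e-13) and 137, 127 and 147 under PKR siRNA 2 (-0.35, not called). Every PKR siRNA 1 library was above, and every PKR siRNA 2 library below, the control. The 2 siRNAs differed by -1.21 ± 0.09 SE (adjusted p = 5.03e-20). PBK, a serine/threonine kinase that is active in mitosis, read 80.1, 67.7 and 85.3 in the control, 110.0, 103 and 107 under PKR siRNA 1 and 37.8, 59.0 and 40.4 under PKR siRNA 2, and fell with the second (-0.77 ± 0.15 SE, adjusted p = 6.4e-06). AURKA, the kinase of the centrosome and spindle poles, was at 299.8, 272 and 297 in the control, 365, 375 and 350.3 under PKR siRNA 1 and 226, 211 and 229 under PKR siRNA 2. No group overlapped another for PBK or AURKA, and between the siRNAs both were called (-1.23 and -0.71).

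**Figure D4:**
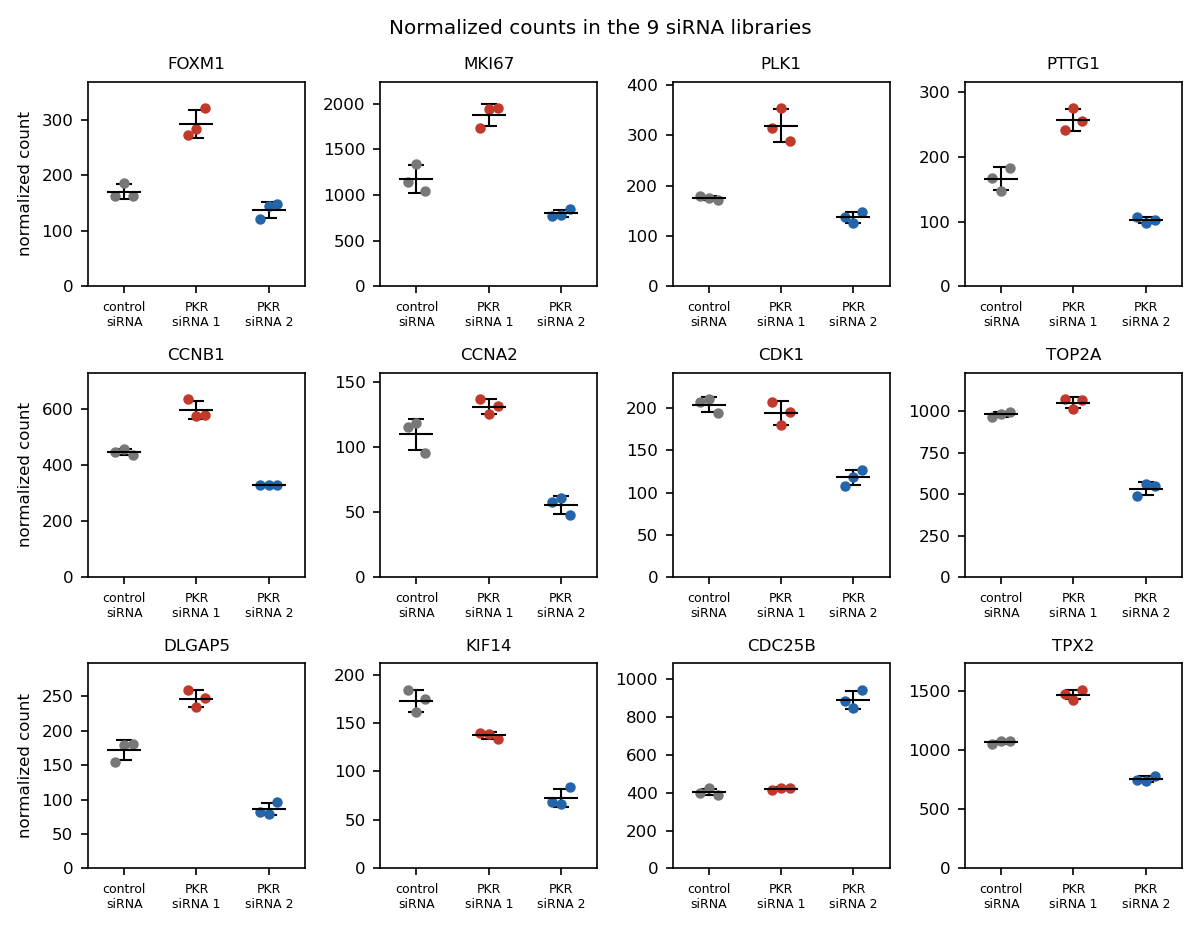
Normalized counts (y axis, from 0) of 12 mitosis genes in the 9 siRNA libraries. Points are libraries, horizontal lines means and bars the SD of 3 libraries. FOXM1, MKI67, PLK1, PTTG1, CCNB1, DLGAP5 and TPX2 are highest with PKR siRNA 1 and lowest with PKR siRNA 2; CDC25B is high with PKR siRNA 2 only.

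In the spindle checkpoint, BUB1 and TTK fell with PKR siRNA 2 (-0.63 and -0.83). BUB1 and TTK are the kinases that load the checkpoint proteins onto unattached kinetochores. Between the siRNAs BUB1, BUB1B and TTK were called lower (-1.08, -0.99 and -0.86), and BUB3 and MAD2L1 were not (-0.31 and -0.36). BUB3, the most abundant of the 5 by normalized count, stood at 422, 399 and 382 in the control, 481, 472 and 510.4 under PKR siRNA 1 and 412, 389 and 381 under PKR siRNA 2. Its PKR siRNA 1 libraries lay above the other 6, which overlapped.

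In the anaphase group, PTTG1 rose with PKR siRNA 1 and fell with PKR siRNA 2. PTTG1 (chr5:160421807-160428744, hg38) encodes securin, which holds separase inactive until anaphase. Its values were 167, 147 and 183 in the control, 241, 275 and 256 under PKR siRNA 1 (0.63 ± 0.10 SE, adjusted p = 9.22e-08) and 107, 97.6 and 103 under PKR siRNA 2 (-0.68 ± 0.10 SE, adjusted p = 9.83e-09). The groups did not overlap, with PKR siRNA 1 highest and PKR siRNA 2 lowest. The rise was under 1.5-fold without the second control library (0.55) or the second PKR siRNA 1 library (0.58). CDC20, the APC/C activator, was at 336, 336 and 315 in the control, 459, 467 and 442 under PKR siRNA 1 and 264, 271 and 308 under PKR siRNA 2. It was called between the siRNAs (-0.70 ± 0.07 SE) but in neither comparison with the control. UBE2C, the ubiquitin-conjugating enzyme of the APC/C, fell with PKR siRNA 2 (-0.60).

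The chromosomal passenger complex corrects faulty kinetochore attachments and later directs cytokinesis; its kinase is AURKB, and INCENP, survivin (BIRC5) and borealin (CDCA8) place it. AURKB read 104, 125 and 108 in the control, 86.6, 107 and 86.8 under PKR siRNA 1 and 77.6, 68.6 and 62.1 under PKR siRNA 2 (-0.69 ± 0.13 SE, adjusted p = 5.65e-06). Only the PKR siRNA 2 libraries were apart from the control. BIRC5, the most abundant of the 4 by normalized count, had 347, 312 and 352 in the control, 354, 328 and 359.9 under PKR siRNA 1 and 289, 234 and 283 under PKR siRNA 2, below the 1.5-fold threshold in each contrast (-0.37 between the siRNAs). CDCA8 fell with PKR siRNA 2 (-0.59), and CDCA8 and INCENP differed between the siRNAs (-0.89 and -0.74).

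The 4 subunits of the NDC80 complex hold the microtubule at the kinetochore. Of these, NDC80 rose with PKR siRNA 1 (0.64) and NUF2 fell with PKR siRNA 2 (-0.77). SPC24 had a log2 fold change of -0.10 ± 0.27 SE between the siRNAs, and SPC25 -0.46 ± 0.18 SE, at low counts; SPC25 also has annotated copies on alternate contigs, so its count is uncertain. CENPF, a large kinetochore protein of G2 and mitosis, read 885, 936 and 875 in the control, 1041, 1167 and 1236 under PKR siRNA 1 and 686, 721 and 718 under PKR siRNA 2. These 3 groups did not overlap, and CENPF and the kinetochore motor CENPE were called between the siRNAs (-0.69 and -0.60), but CENPA, the centromeric histone H3 variant, was not (-0.24).

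Of the 7 kinesins, KIF18A rose with PKR siRNA 1 (0.59), and KIF14 and KIF2C fell with PKR siRNA 2. KIF14, a motor of the midbody, stood at 184, 161 and 174 in the control, 140.0, 139 and 133 under PKR siRNA 1 and 68.6, 66.5 and 83.7 under PKR siRNA 2 (-1.24 ± 0.11 SE, adjusted p = 3.58e-16). It was the gene with the largest fall, and the one gene of the 47 lower on the adjusted p alone with PKR siRNA 1 as well (-0.33 ± 0.11 SE, adjusted p = 0.0112). The log2 fold change of KIF2C, a microtubule depolymerase, was -0.61. KIF4A, a chromosome-bound motor, read 306, 306 and 297 in the control, 383, 351 and 339 under PKR siRNA 1 and 190.0, 214 and 227 under PKR siRNA 2. KIF20A, a motor of cytokinesis, had 156, 143 and 155 in the control, while PKR siRNA 1 gave 188, 201 and 176 and PKR siRNA 2 gave 121, 119 and 128. Both were ordered PKR siRNA 1, control, PKR siRNA 2 without overlap. Between the siRNAs 6 of the 7 kinesins were called lower, from KIF14 (-0.91) to KIF20A (-0.61), and KIF23 was not (-0.53).

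Among the spindle assembly genes, TPX2, which activates AURKA on spindle microtubules, was at 1055, 1075 and 1078 in the control, 1479.5, 1429 and 1510.0 under PKR siRNA 1 and 748, 741 and 786 under PKR siRNA 2. Per kb of the annotated gene it had the highest control level of the 47 (292 ± 3.49 normalized counts per kb), followed by CKS2 (241 ± 26.0), CCNB1 (205 ± 4.89) and CDC20 (196 ± 7.34); the spreads of CCNB1 and CDC20 overlap. CDC25C had the lowest (12.2 ± 1.01). DLGAP5, a microtubule-binding protein that stabilizes spindle fibres at the kinetochore, stood at 155, 179 and 181 in the control, 259, 234 and 247 under PKR siRNA 1 and 82.6, 79.3 and 95.9 under PKR siRNA 2. It fell with PKR siRNA 2 (-0.99 ± 0.10 SE, adjusted p = 7.16e-14), and the difference of -1.51 ± 0.10 SE between the siRNAs (adjusted p = 7.8e-23) was the largest of the 47. PRC1, which bundles the microtubules of the central spindle, rose with PKR siRNA 1 (0.62) and was lower between the siRNAs (-1.17). HMMR, NUSAP1 and ASPM were not called between them (-0.44, -0.22 and -0.44). PRC1 and HMMR share 10.6% and 9.71% of their exon bases with an antisense gene, and since the strand used in counting is not stated these counts are uncertain.

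Of the 2 cytokinesis genes, ECT2, which activates RhoA at the cleavage furrow, fell with PKR siRNA 2 (-0.78), and anillin (ANLN) was called between the siRNAs (-0.60). TOP2A, the topoisomerase that untangles sister chromatids, read 962, 985 and 993 in the control, 1072, 1014 and 1069 under PKR siRNA 1 and 487, 561 and 549 under PKR siRNA 2 (-0.88 ± 0.06 SE, adjusted p = 1.93e-23). Its PKR siRNA 2 libraries lay far below the other 6, and PKR siRNA 1 did not pass the test (0.10). MKI67, the proliferation marker Ki-67 that coats mitotic chromosomes, stood at 1142, 1343 and 1048 in the control, 1732, 1940.1 and 1950.0 under PKR siRNA 1 (0.68 ± 0.06 SE, adjusted p = 2.69e-17) and 767, 781 and 846 under PKR siRNA 2 (-0.55 ± 0.06 SE, adjusted p = 1.15e-13, under 1.5-fold). All 3 groups were apart.

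FOXM1 (chr12:2857681-2877155, hg38), the factor that activates many G2 and mitosis genes, read 163, 186 and 162 in the control, 273, 283 and 321 under PKR siRNA 1 (0.78 ± 0.09 SE, adjusted p = 6.61e-11) and 121, 145 and 149 under PKR siRNA 2 (-0.30 ± 0.09 SE, adjusted p = 0.00554, under 1.5-fold). Its groups did not overlap, and it differed by -1.08 ± 0.09 SE between the siRNAs. FOXM1 shares 12.3% of its exon bases with an antisense gene, LOC100507424, so its counts carry the same uncertainty. In an exact permutation test of a single gene, 3 libraries against 3 cannot give a p below 0.1, and genes whose groups did not overlap reached that p.

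With the PKR inhibitor C16 few of the mitosis genes were called. At 400 nM 1 of the 46 genes tested (FOXM1) rose, against 7.08% of all 9963 genes tested, and SPC24 was too low to test. In the other direction 0 were called by limma, edgeR and DESeq2, with 2 lower at an unadjusted p under 0.05 and a background of 5.45%. At 800 nM 2 of the 46 rose (FOXM1 and PBK) and 1 fell (KIF20A), against 11.6% and 14.1% of all genes. On the adjusted p alone the counts were 7 higher at 400 nM (14.6% of all genes, and 11.9% lower), and 9 higher and 6 lower at 800 nM (22.3% and 22.6%). Between the doses 1 gene (PBK) was called higher at 800 nM, against 1.13%, and 0 lower by limma, edgeR and DESeq2, with 7 lower at an unadjusted p under 0.05 and a background of 3.95%; on the adjusted p alone they were 1 and 5, against 5.09% and 9.18%. The median log2 fold change of the 46 was 0.09 at 400 nM and 0.04 at 800 nM, with medians of all genes of 0.00 and 0.00.

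**Figure D5:**
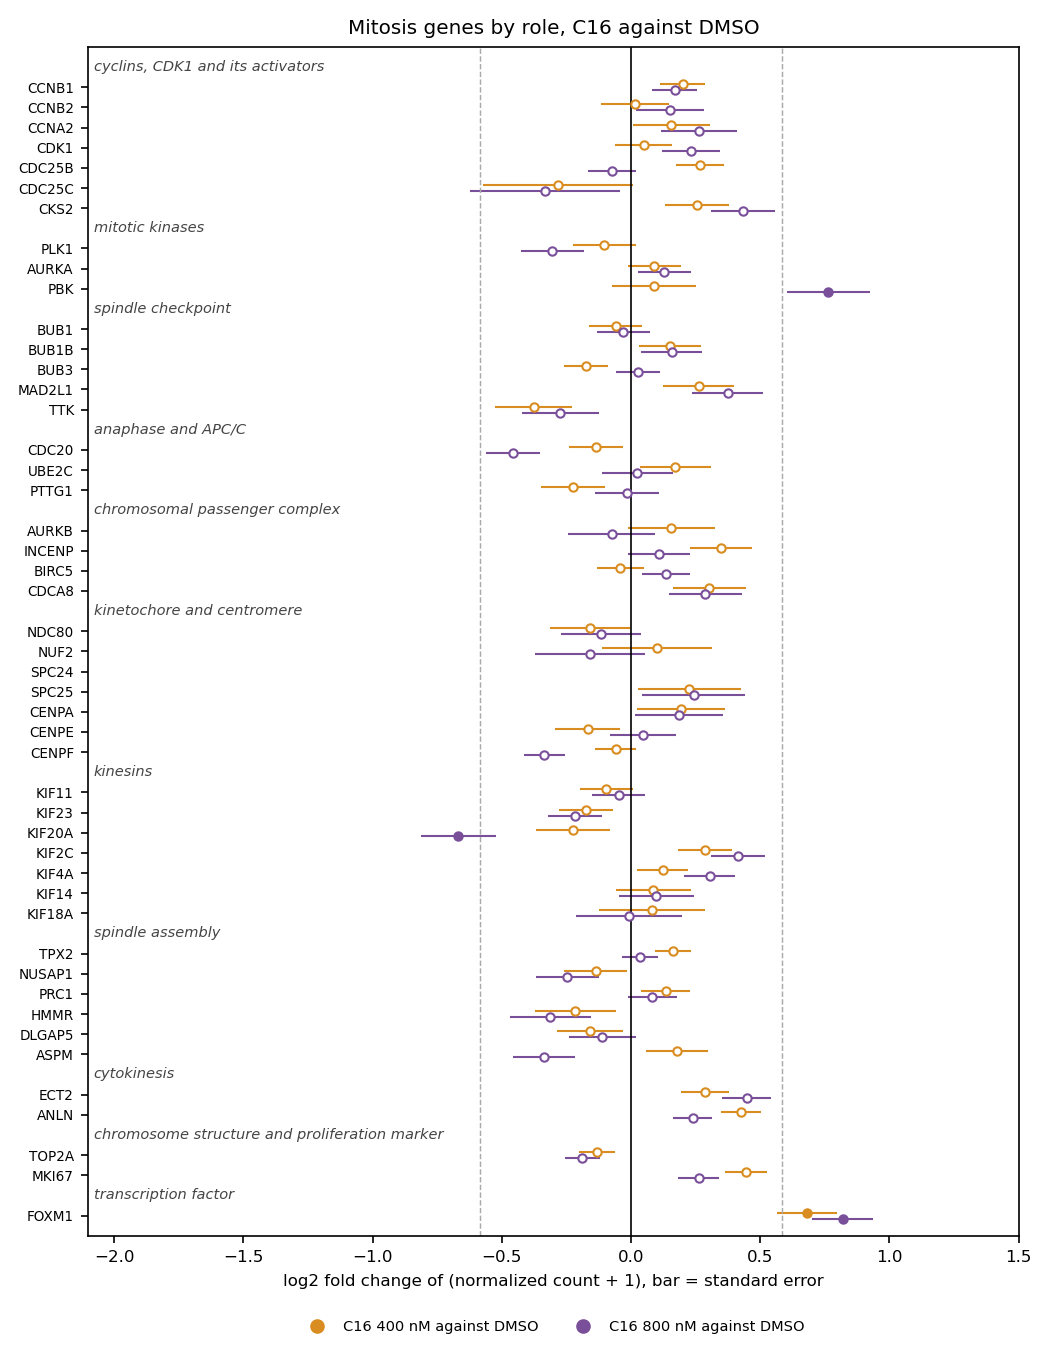
Log2 fold change (x axis) of the mitosis genes, grouped by role, for 400 nM C16 (orange) and 800 nM C16 (purple) against DMSO; SPC24 was not tested. Points are limma estimates and bars their standard errors; filled points are called, and dashed lines mark a fold of 1.5. FOXM1 lies to the right at both doses (0.68 and 0.82), PBK (0.76) and KIF20A (-0.67) stand apart at 800 nM, and the other genes lie between the dashed lines.

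FOXM1 was at 77.7, 76.2 and 86.0 with DMSO, 116, 127 and 145 at 400 nM (0.68 ± 0.12 SE, adjusted p = 5.97e-06) and 151, 130.4 and 144 at 800 nM (0.82 ± 0.12 SE, adjusted p = 4.11e-08). Every treated library was above every DMSO library, and the doses overlapped (0.14 between them). PBK read 50.5, 39.0 and 40.4 with DMSO, 48.9, 45.0 and 43.6 at 400 nM and 67.6, 76.8 and 77.3 at 800 nM (0.76 ± 0.16 SE, adjusted p = 9.06e-05). Its 800 nM libraries were above the other 6, and the difference between the doses was itself called (0.68 ± 0.16 SE, adjusted p = 0.00239). KIF20A stood at 86.5, 80.9 and 112 with DMSO, 68.1, 88.8 and 80.9 at 400 nM and 53.5, 53.6 and 66.8 at 800 nM (-0.67 ± 0.14 SE, adjusted p = 0.000123). The fall rested on the third DMSO library, the highest of the table for this gene: without it the log2 fold change was -0.53 and below the threshold.

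The genes called under an siRNA were mostly not called with C16. CCNB1, BIRC5 and TPX2, also given here, were called with neither siRNA against the control. CCNB1 was at 249.7, 232 and 254 with DMSO and 259, 272 and 297 at 800 nM (0.17, adjusted p = 0.111). CDK1 stood at 126, 120.0 and 109.6 with DMSO and 127, 144 and 148 at 800 nM (0.23, adjusted p = 0.0843). CCNA2 had 68.0, 65.7 and 53.3 with DMSO and 70.6, 76.8 and 76.3 at 800 nM (0.26, adjusted p = 0.146). None of these 3 passed the adjusted p. AURKB read 48.6, 56.2 and 54.1 with DMSO and 42.4, 45.1 and 65.8 at 800 nM (-0.08), and BIRC5 237, 209 and 219 with DMSO and 238, 236 and 255 at 800 nM (0.14); neither was called. CDC25B, high with PKR siRNA 2, read 232 ± 24.8 (SD, n = 3) with DMSO and 220.0 ± 24.4 at 800 nM (-0.07), and DLGAP5 98.8 ± 6.57 and 92.1 ± 15.6 (-0.11). KIF14 had log2 fold changes of 0.09 and 0.10 at the 2 doses, and TPX2 0.16 and 0.03. MKI67 stood at 508, 615 and 749 with DMSO, 753, 927 and 847 at 400 nM (0.45 ± 0.08 SE, adjusted p = 1.43e-05) and 727, 708 and 784 at 800 nM (0.26 ± 0.08 SE, adjusted p = 0.00591), under 1.5-fold at both. The 400 nM libraries lay above the DMSO libraries, while the third DMSO library overlapped those at 800 nM; without that library MKI67 at 400 nM reached 0.59 and was called. At 800 nM its log2 fold change moved to 0.40 without the same library and to 0.12 without the first DMSO library.

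At 800 nM several genes passed the adjusted p below 1.5-fold, and they ran in both directions. Higher were ECT2 (0.45), CKS2 (0.43), KIF2C (0.41), MAD2L1 (0.37), KIF4A (0.30), MKI67 and ANLN (0.24). Lower were CDC20 (-0.46), ASPM (-0.34), CENPF (-0.34), PLK1 (-0.31) and TOP2A (-0.19). CDC20 was at 166, 181 and 195 with DMSO, 148, 178 and 168 at 400 nM and 123, 140.1 and 131 at 800 nM, with the 800 nM libraries below the other 6. PLK1 had 119.5, 122 and 129 with DMSO, 105, 112 and 129 at 400 nM and 108, 80.4 and 114 at 800 nM. Its 800 nM libraries lay below the DMSO libraries and overlapped those at 400 nM. Without the second 800 nM library its log2 fold change was -0.15. TOP2A read 588, 591 and 630.5 with DMSO, 557, 535 and 559 at 400 nM and 539.6, 533 and 515 at 800 nM. The libraries of both doses lay below those of DMSO and overlapped each other. CENPF stood at 466, 515 and 592 with DMSO, at 472, 511 and 520.2 for 400 nM and at 411, 368 and 468 for 800 nM. For CENPF the third library at 800 nM was above the lowest DMSO library, so these groups overlapped.

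Another 104 mitotic genes, in 6 lists of APC/C subunits and inhibitors, condensins, cohesin with shugoshin and separase, other kinetochore and centromere genes, other spindle, kinesin and cytokinesis genes, and entry regulators, were tested in the same fits. With PKR siRNA 1 17 of the 104 were called higher and 5 lower (median log2 fold change 0.19), and with PKR siRNA 2 3 were called higher and 26 lower (-0.30). Among all genes tested, PKR siRNA 1 had 8.53% called higher and 12.6% lower, while PKR siRNA 2 had 10.8% higher and 12.8% lower. Between the siRNAs 43 were called lower and 3 higher, against 15.3% and 16.4% of all genes. Of the 17 APC/C subunits and inhibitors 2 were called higher and 1 lower with PKR siRNA 2, and of the 27 other spindle, kinesin and cytokinesis genes 10 were called lower. CENPH, a subunit of the constitutive centromere network, was called lower with both siRNAs (-1.40 ± 0.22 SE and -1.58 ± 0.22 SE). The centromere chaperone HJURP was lower with PKR siRNA 2 (-0.89), as was the condensin subunit NCAPD3 (-0.97). Among the entry regulators, CKS1B was called higher with both siRNAs (1.32 and 0.98), while CDKN3, a phosphatase that acts on CDKs, rose with PKR siRNA 1 (1.32). At 800 nM C16 11 of 100 tested genes of these lists were called higher and 3 lower, led by the phosphatase CDC25A (1.46 ± 0.21 SE at 400 nM and 2.17 ± 0.21 SE at 800 nM) and the kinase MASTL, which restrains PP2A in mitosis (1.06 and 1.08); of all genes 11.6% were called higher and 14.1% lower at this dose.

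DNA replication genes, which are read in S phase, were compared with the mitosis genes as a second cell cycle group. Of 38, 7 were called lower and 1 higher with PKR siRNA 2, and 2 higher and 2 lower with PKR siRNA 1, with medians of -0.27 and 0.05. Over all genes tested the shares were 12.8% lower and 10.8% higher for PKR siRNA 2, while PKR siRNA 1 gave 8.53% higher and 12.6% lower. With PKR siRNA 2 against PKR siRNA 1, 8 of the 38 were called lower and 0 higher, with a median of -0.33. The shares over all genes were 15.3% and 16.4%, and the median of the mitosis genes was -0.74. At 400 nM C16 6 of the 38 were called higher, where 7.08% of all genes were. At 800 nM C16 14 of the 38 were called higher, where 11.6% of all genes were, and their median of 0.41 stood beside 0.04 for the mitosis genes. The licensing factor CDC6 led with 1.43 ± 0.12 SE at 800 nM and 0.98 ± 0.12 SE at 400 nM, followed by the clamp loader subunit RFC3 (1.23 and 0.85). Of the 32 replication promoters that RefSeq gave, 2 (6.25%) held a CHR and 18 (56.2%) a CCAAT box. Of the 89 promoters of the other mitotic lists, 43 (48.3%) held a CHR and 50 (56.2%) a CCAAT box.

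The genes upstream of the mitosis genes were given by a list of 22 regulators. GADD45A, a stress-induced protein that can inhibit cyclin B-CDK1, read 68.8, 51.6 and 82.5 in the control, 112, 117 and 124 under PKR siRNA 1 (0.81) and 233, 193 and 205 under PKR siRNA 2 (1.64). CDKN1A, the CDK inhibitor p21, stood at 48.3, 56.9 and 55.9 in the control, at 80.0, 61.7 and 76.2 under PKR siRNA 1 and at 132, 110.4 and 147 under PKR siRNA 2, and rose with PKR siRNA 2 (1.25 ± 0.14 SE). Both genes were highest with PKR siRNA 2, without overlap with the other groups. For both, every PKR siRNA 1 library also lay above every control library. The direct contrast of the siRNAs gave 0.83 ± 0.12 SE for GADD45A and 0.83 ± 0.14 SE for CDKN1A. With C16, GADD45A was at 88.9 ± 8.86 (SD, n = 3) with DMSO and 143 ± 8.20 at 800 nM (0.69), and it was called. E2F7, a repressor of E2F target genes, was called higher with PKR siRNA 1 (1.13 ± 0.18 SE) and lower with PKR siRNA 2 (-1.39 ± 0.18 SE), and the siRNAs differed by -2.52 ± 0.18 SE. LIN54, the MuvB subunit that binds the CHR, was called higher with PKR siRNA 1 (0.83) and at 800 nM C16 (1.17). MYBL2, B-MYB, was called higher at 400 nM (0.84), and E2F2 at 800 nM (1.13).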

How the data were processed

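RNA of PANC-1 cells was sequenced from strand-marked poly(A) libraries. TopHat was used by the authors to map reads (hg38), featureCounts to count them per gene, and TCC to normalize the counts (TMM), separately for the siRNA and the C16 libraries; the annotation and the strand used in counting are not given in the sources used here. The deposited values are this normalized signal, called normalized counts here. They were whole multiples of 1 read, so reads were recovered. Replicates differed by more than sampling noise in 18 of 18 pairs and none were merged.

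Tests used limma 3.58.1 under R 4.3.3, with a trend in eBayes and two-sided, on log2(normalized count + 1), with the 9 libraries of a table in the fit and genes with a mean of at least 10, and p-values were adjusted over all genes tested by the Benjamini-Hochberg method. A gene was called at an adjusted p under 0.05 and a fold change over 1.5. This scale understates the change of low genes. The scripts were tested on simulated reads. Alternatives tried were a pseudocount of 0.5 or 5, a minimum mean of 30 or none, rescaling by median of ratios, a fit of the compared groups alone, a replicate block, DESeq2 1.42.0 and edgeR 4.0.16 on recovered reads, and leaving out each library.

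The 47 genes, the other lists and the tests were chosen with earlier results of these data known. Values in every siRNA library, and in C16 libraries for some of these genes, are given for 8 standard markers, for the 3 called genes with the largest rise and fall in each comparison with a control and between the siRNAs, and for the most abundant gene of each role; called genes of other lists are named by their size, at most 2 a list and comparison. CCNA2, CDC25C, PLK1, KIF20A and ANLN also overlap exons of an antisense gene, and BUB1B with PAK6 on its own strand, so their counts carry the same uncertainty.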

Additional observations from a re-analysis of the deposited data

Results flagged for a closer look

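The 2 siRNAs gave different effects on the mitosis genes, by the direct contrast of PKR siRNA 2 with PKR siRNA 1 in limma: 34 of the 47 were lower and 1 was higher. Among the 21 genes with values given in every siRNA library, those with an adjusted p under 0.05 in both comparisons with the control, in opposite directions, and in this contrast had log2 differences of -1.51 for DLGAP5, -1.32 for PTTG1, -1.23 for PBK, -1.23 for MKI67, -1.21 for PLK1, -1.08 for FOXM1, -0.96 for TPX2, -0.85 for CCNB1, -0.76 for KIF4A, -0.71 for AURKA, -0.70 for CDC20, -0.69 for CENPF and -0.61 for KIF20A.

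For 10 of the same 21 genes every library at 800 nM C16 lay on one side of the DMSO libraries, and every library of an siRNA on the other side of its control; these contrasts belong to separate tables, and the difference was not tested. With 800 nM C16 the log2 fold changes opposite to PKR siRNA 2 were 0.82 for FOXM1, 0.76 for PBK, 0.30 for KIF4A, 0.26 for CCNA2, 0.23 for CDK1 and 0.17 for CCNB1. Those opposite to PKR siRNA 1 were -0.67 for KIF20A, -0.46 for CDC20, -0.31 for PLK1 and -0.19 for TOP2A. Apart from CDK1, each of these genes had the siRNAs on opposite sides of the control. For them a separated C16 change was bound to oppose an siRNA and to share the side of the other. The opposition is therefore not a result by itself, and the share of all genes with this pattern was not counted. Groups of 3 libraries are too small to test for a single library far from the others. Replicates were compared by the chi-square of reads per degree of freedom, where sampling noise alone gives about 1. The third DMSO library gave 1.63 against the first and 1.37 against the second. The first and second DMSO libraries gave 1.08, and the highest pair in any other group was 1.33.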

How the results depend on the processing

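Counts of called mitosis genes stayed within 1.5 times under all pseudocounts, filters, the rescaling, the fit of only the groups compared, edgeR and DESeq2: 6 to 7 higher with PKR siRNA 1, 13 to 16 lower with PKR siRNA 2 and 34 lower between the siRNAs. With the fits that left out a library included, 13 to 17 were lower with PKR siRNA 2 and 31 to 35 between the siRNAs. The median log2 fold change with PKR siRNA 1 was 0.29 with edgeR, beside 0.26. Leaving out a library gave medians of 0.26 to 0.29 with PKR siRNA 1, -0.46 to -0.36 with PKR siRNA 2, 0.042 to 0.091 at 400 nM C16 and 0.012 to 0.073 at 800 nM. It gave 1 to 2 genes called higher at 400 nM C16, with MKI67 added without DMSO replicate 3, and 0 to 1 called lower at 800 nM, with KIF20A lost without the same library; that library alone decides both. For single genes with values in every siRNA library, 657 repeats under the other alternatives kept their direction and call, and of 438 that left out a library 4 lost and 3 gained a call and 0 changed direction; the cause was not tested. Besides PTTG1 with PKR siRNA 1 and the genes named above, MKI67 fell by over 1.5-fold with PKR siRNA 2 without control siRNA replicate 3 (-0.63) or PKR siRNA 2 replicate 3 (-0.60), and KIF20A between the siRNAs lost its call without PKR siRNA 1 replicate 2 (-0.56).

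Replicate numbers did not pair the libraries: deviations of same-numbered libraries correlated at -0.03 to 0.03 (siRNA) and -0.05 to 0.02 (C16), and with a replicate block the counts were 7 higher with PKR siRNA 1, 15 lower with PKR siRNA 2 and 34 lower between the siRNAs. At 894145 to 1873906 reads on genes, SPC24, SPC25 and CDC25C are imprecise.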
